A study of Mus musculus with 6 samples.

Results

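The genes examined here encode the machinery that breaks down fatty acids in mitochondria and peroxisomes, together with enzymes of ketone body use. The list holds 38 genes named for their enzyme or transporter, and a row of the count table was taken as a member when its gene symbol was on the list. For a symbol with more than 1 row, that with the largest total over the 6 libraries was used. Of the 38 genes, 30 had a row and 27 passed the filter on low counts, out of 37024 rows in the table and 9872 rows tested. *Acads*, *Acadm*, *Acadl*, *Acadvl*, *Hadh*, *Hadhb*, *Etfb* and *Hsd17b4* were not analysed here. The list covers the mitochondrial acyl-CoA dehydrogenases thinly for that reason, since the enzymes named for short, medium, long and very long chains are among the genes not analysed.

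RNA was taken from iWAT, the inguinal subcutaneous fat of the mouse, and sequenced in bulk. The libraries labelled AdWT came from *Lexis* fl/fl mice without Cre, and those labelled AdKO from their *Lexis* fl/fl littermates that also carried *Adipoq*-cre. *Lexis* is a long noncoding RNA, and *Adipoq*-cre recombines floxed alleles in mature adipocytes, so the other cells of the tissue keep the gene. All animals were on a C57BL/6 background and had eaten a Western diet for 12 weeks, and there were 3 biological replicates in each group. The comparison asks how gene expression in this fat depot differs when *Lexis* is removed from adipocytes. The sex of these animals, and the age at which their fat was taken, were not given for this experiment in the sources used here.

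Fatty acids enter mitochondria as carnitine esters and are shortened there in a repeating cycle of dehydrogenation, hydration, a further dehydrogenation and thiolysis, which releases acetyl-CoA and passes electrons to the respiratory chain. Peroxisomes run a parallel cycle on very long-chain, branched and dicarboxylic acids, with their own transporters and with oxidases in place of dehydrogenases. Many genes of both cycles are induced by the PPAR nuclear receptors. In white fat the pathway is modest, and it is known for being raised when white adipocytes take on features of brown ones.

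Library totals ran from 14470542 to 17882713, and the limit that a count of 0 allows, set at 3 counts, was 0.179 to 0.206 CPM and covers counting error only. CPM stands for counts scaled to a common library total, here after TMM scaling, which corrects totals for differences in composition. Of 16 RNA FISH probes against *Lexis*, 9 matched chromosome 4 of NCBIM37 (mm9) exactly, all within the lincRNA gene *4930412L05Rik* from 53217938 to 53230729 on the minus strand. Its count was 8, 9 and 8 in the AdWT-labelled libraries and 21, 11 and 13 in the AdKO-labelled ones. All 3 counts under the AdKO label were the higher ones, at a log2 fold change of 0.87 and an unadjusted *p* of 0.055 in the quasi-likelihood test of edgeR (adjusted p 0.851). The table does not separate its exons, so this row does not show whether the floxed part was deleted, and every direction given here rests on the labels. Of 28 skeletal muscle genes with a row, 22 had a total of at least 10 counts, and 17 of these were highest in AdWT replicate 2. In that library *Ckm* had 576 counts, against 87 and 29 in AdWT replicates 1 and 3 and 0 in every library labelled AdKO. In bulk tissue, fewer cells of a type and less RNA per cell cannot be told apart.

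None of the 27 genes passed the test. The smallest adjusted p among the members was 0.817 in the quasi-likelihood test of edgeR (Benjamini-Hochberg adjusted) over all 9872 rows, whose smallest was 0.206, and 0% of rows were called. At an unadjusted *p* under 0.05, the same test gave 2 members, *Acaa1b* and *Acad11*, both with lower levels in the libraries labelled AdKO. That threshold took in 5.73% of all rows tested, 2.98% with a lower and 2.76% with a higher level in the libraries labelled AdKO. Members at this threshold numbered 6 without AdWT replicate 1, where the share of all rows rose to 11.8%, and 1, *Acaa1b*, without AdWT replicate 2 or 3 or AdKO replicate 2 or 3, where that share was 3.2% to 5.04%. DESeq2 also gave 0 members with an adjusted *p* under 0.05. The largest difference among genes with high counts was that of *Acaa1b*, a peroxisomal thiolase, with a log2 fold change of −0.49. Of the 27 genes tested, 24 were under 0.25 in absolute log2 fold change, and beside *Acaa1b* the exceptions were *Cpt1c* (0.64) and *Acad9* (0.48), both with few counts. All fold changes set AdKO over AdWT, as labelled, and *p* values set the difference between the groups against the spread among animals of the same group.

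**Figure D1:**
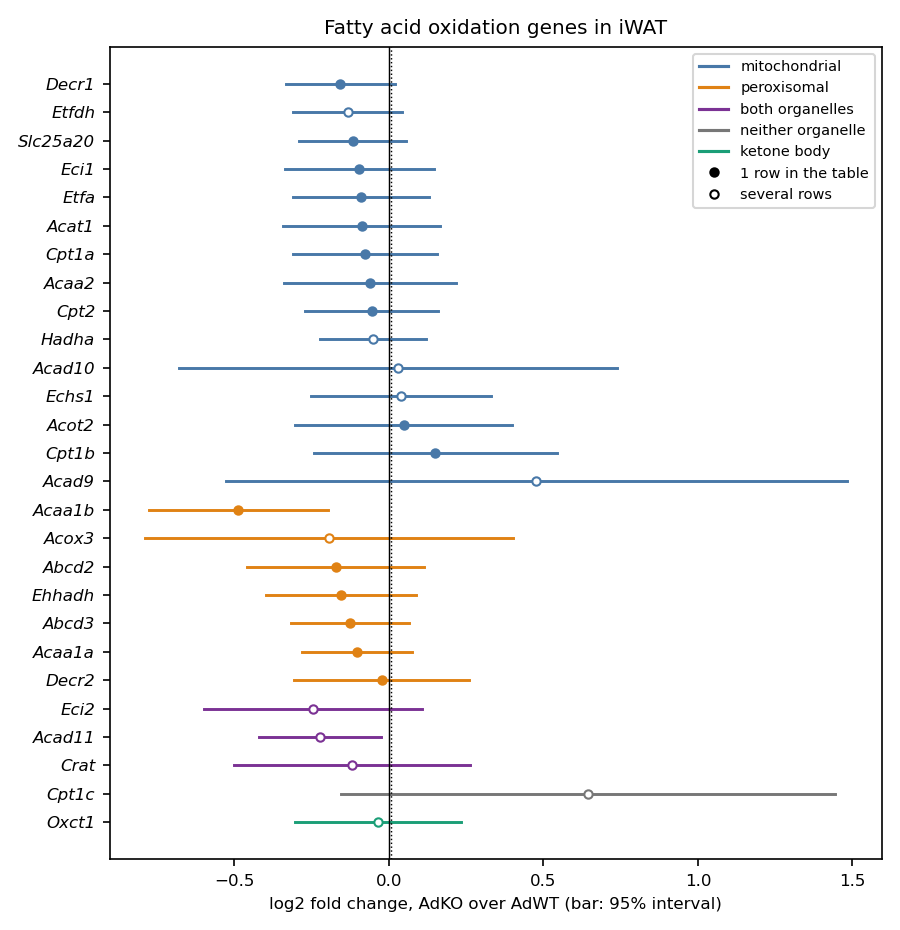
The log2 fold change of each of the 27 genes tested (x axis, AdKO over AdWT) is shown with its 95% interval, coloured by organelle, with filled points for genes that have 1 row in the table and open points for genes with several, and the dotted line marks the median of all rows tested at 0.0071. The intervals of *Acaa1b* and *Acad11* lie below 0, and those of the other 25 genes cross it.

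Levels were compared between genes per kilobase of exon, and only among the 17 genes that have 1 row. The order of mean CPM per kilobase ran from *Abcd2* at 270 through *Etfa* at 247, *Eci1* at 216, *Acaa2* at 201 and *Cpt2* at 177 to *Acat1* at 153 and *Decr1* at 144. These are a peroxisomal transporter, an electron carrier, an isomerase, the thiolase of the mitochondrial cycle, the inner carnitine transferase, the acetoacetyl-CoA thiolase and a reductase. *Cpt1a* at 120, *Acaa1a* at 116 and *Slc25a20* at 108 followed, and *Abcd3* at 59.98, *Acaa1b* at 51.3, *Ehhadh* at 30.0, *Decr2* at 27.8, *Acot2* at 18.4 and *Cpt1b* at 12.6 were lower. Among neighbours in this order, the libraries separated fully between *Decr1* and *Cpt1a*, *Slc25a20* and *Abcd3*, *Acaa1b* and *Ehhadh*, *Decr2* and *Acot2*, and *Cpt1b* and *Acot1*, and the ranges over libraries overlapped elsewhere. Within a library, *Abcd2* was above *Etfa* in 6 of 6 libraries. *Acot1*, at 0.278, lay near the floor of the libraries.

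**Figure D2:**
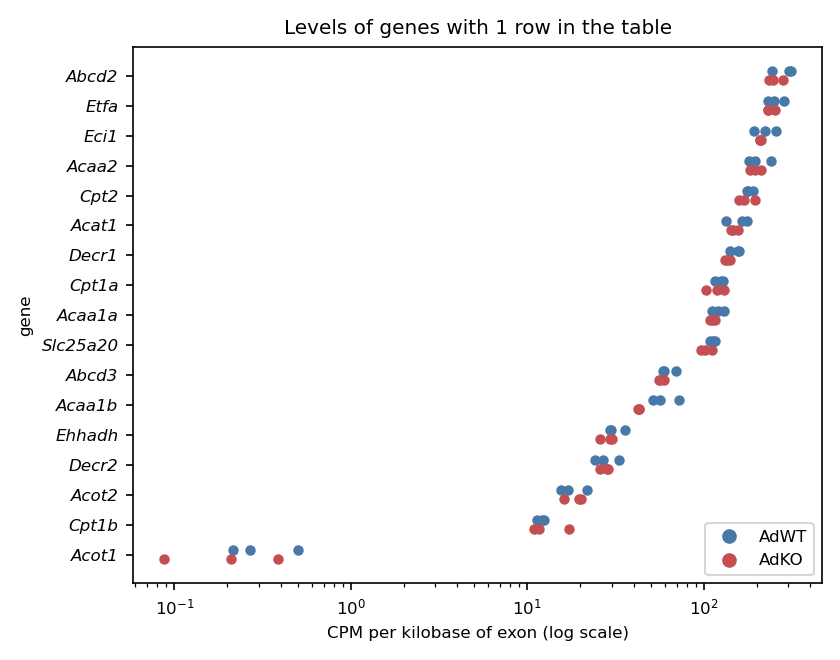
Level of the 17 genes with 1 row in the count table, in CPM per kilobase of exon on a log axis, with each library as a point (blue AdWT, red AdKO). The genes run from *Abcd2*, with a mean of 270, to *Acot1*, with a mean of 0.278, and the points of the groups overlap at each gene except *Acaa1b*.

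Genes with several rows were read with more caution. The median count per library was 3632 over the 17 members with 1 row and 90.5 over the 13 members with several, and 9 of those 13 had a median under 300 counts. In the whole table, 53.6% of rows whose symbol occurs more than once were at 0 in all 6 libraries, against 31.8% of rows whose symbol occurs once. How reads shared by several rows were counted is not given in the sources used here, so the levels of these 13 members may be too low. They are *Oxct1*, *Crat*, *Eci2*, *Cpt1c*, *Acad9*, *Acad10*, *Acox3*, *Bdh1* and *Acox2*, and, with higher counts, *Acad11*, *Hadha*, *Echs1* and *Etfdh*.

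The carnitine shuttle begins with Cpt1, the malonyl-CoA-sensitive transferase of the outer mitochondrial membrane. *Cpt1a*, its liver-type form and the main form in this tissue (chromosome 19, 3323301 to 3385732, plus strand), had 541, 554 and 496 CPM in the AdWT-labelled libraries and 443, 556 and 509 CPM in the AdKO-labelled ones. The groups overlapped, and AdKO replicate 1 was the lowest library while AdKO replicate 2 was the highest. Its log2 fold change was −0.077 with a standard error of 0.0993 and a 95% interval from −0.31 to 0.16. *Cpt1b*, the muscle-type form (chromosome 15, 89246836 to 89256294, minus strand), lies within the annotated span of *Chkb*, so reads of the overlapping genes cannot be told apart without the counting rule. *Cpt1b* had 40.8, 41.7 and 38.3 CPM in the AdWT-labelled libraries and 36.9, 39.4 and 57.7 CPM in the AdKO-labelled ones. AdKO replicate 3 stood above the other 5 libraries, and the log2 fold change of 0.15 (standard error 0.168) became −0.078 without it. The ratio of *Cpt1b* to *Cpt1a* counts within a library lay between 0.0708 and 0.113, and the groups overlapped (exact two-sided permutation test, *p* = 0.4).

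*Cpt1c*, a form found mainly in neurons and in the endoplasmic reticulum, had 1.37, 0.717 and 1.004 CPM in the AdWT-labelled libraries and 1.10, 1.98 and 1.74 CPM in the AdKO-labelled ones. AdKO replicates 2 and 3 lay above all 3 libraries labelled AdWT, and AdKO replicate 1 lay among them. Its log2 fold change of 0.64 was the largest positive value among the members, with a standard error of 0.342 and a 95% interval from −0.15 to 1.44. *Slc25a20*, the carnitine-acylcarnitine carrier of the inner membrane, and *Cpt2*, which returns the acyl group to coenzyme A in the matrix, had log2 fold changes of −0.12 and −0.056. *Crat*, the transferase for short-chain acyl groups, had −0.12. Of the 6 shuttle genes, 4 had lower and 2 had higher fitted levels in the libraries labelled AdKO, and 0 reached an unadjusted *p* under 0.05, where 48.3% of all rows had lower fitted levels and 5.73% reached that p.

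Of the 7 acyl-CoA dehydrogenases, which catalyse the initial step of each mitochondrial cycle, 3 were tested. *Acad11*, an enzyme for long-chain and hydroxylated substrates found in both organelles (chromosome 9, 103942992 to 104029976, plus strand), had 377, 415 and 433 CPM in the AdWT-labelled libraries and 379, 336 and 335 CPM in the AdKO-labelled ones. AdKO replicate 1 lay just above AdWT replicate 1, so the groups overlapped, while AdKO replicates 2 and 3 were below all libraries labelled AdWT. A log2 fold change of −0.22 was fitted (standard error 0.0848, 95% interval −0.42 to −0.025), with an unadjusted *p* of 0.0323 and an adjusted *p* of 0.851 in the quasi-likelihood test of edgeR (Benjamini-Hochberg adjusted). The two-sided exact permutation test gave *p* = 0.2, where 0.1 is the smallest that 3 replicates against 3 allow. The unadjusted *p* rose above 0.05 without AdWT replicate 2 (0.0788), AdWT replicate 3 (0.0834), AdKO replicate 2 (0.0925) or AdKO replicate 3 (0.109). It did so too with library size scaling only (0.0594), the replicate number as a block (0.0795), the skeletal muscle covariate (0.182) and the adipocyte marker covariate (0.306). With the adipocyte marker level as a covariate, an alternative chosen after the data were seen, the log2 fold change of *Acad11* was −0.090.

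*Acad9*, which acts mainly in the assembly of respiratory complex I, had counts near the floor, with 0.458, 0.717 and 0.335 CPM in the AdWT-labelled libraries and 0.825, 0.461 and 0.841 CPM in the AdKO-labelled ones. The groups overlapped. Its log2 fold change of 0.48 was the largest positive value among the mitochondrial genes, and its 95% interval from −0.53 to 1.48 was the widest of all members. *Acad10*, a less studied relative, lay between 1.14 and 2.20 CPM with a log2 fold change of 0.029.

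The later steps of the mitochondrial cycle were represented by *Echs1*, the short-chain enoyl-CoA hydratase, *Hadha*, the alpha subunit of the trifunctional protein, *Acaa2*, the medium-chain thiolase, and *Acat1*, the acetoacetyl-CoA thiolase that serves both the last turn of oxidation and ketone bodies. *Hadha* was the steadiest of these, at 476, 468 and 475 CPM in the AdWT-labelled libraries and 422, 479 and 468 CPM in the AdKO-labelled ones. AdKO replicate 1 was the lowest library, and the other 5 lay within a range of 468 to 479 CPM. The 95% interval of its log2 fold change, from −0.22 to 0.12, was the narrowest of the 27 members tested. *Echs1*, *Acaa2* and *Acat1* had log2 fold changes of 0.040, −0.061 and −0.088. All 3 had their lowest value in AdWT replicate 1 and their highest in AdWT replicate 3.

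Unsaturated fatty acids need isomerases and a reductase before they can complete the cycle. *Decr1*, the mitochondrial 2,4-dienoyl-CoA reductase, had 548, 609 and 614 CPM in the AdWT-labelled libraries and 526, 549 and 514 CPM in the AdKO-labelled ones. AdKO replicate 2 and AdWT replicate 1 differed by less than 1 CPM, and the other libraries labelled AdKO were below all of those labelled AdWT. Its log2 fold change of −0.16 (standard error 0.0754) was the lowest of the 15 mitochondrial genes tested, with a 95% interval from −0.33 to 0.019. *Eci2*, an enoyl-CoA isomerase found in both organelles, had 6.22, 6.46 and 6.89 CPM in the AdWT-labelled libraries and 5.91, 5.53 and 5.05 CPM in the AdKO-labelled ones. All 3 libraries labelled AdKO were below all 3 labelled AdWT, by a small margin (exact two-sided permutation test, *p* = 0.1, the minimum of this design). *Eci2* had a log2 fold change of −0.25 with a 95% interval from −0.60 to 0.11. *Eci1*, the mitochondrial isomerase, had a log2 fold change of −0.10.

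Electrons from the dehydrogenases pass through the electron transfer flavoprotein to *Etfdh*, which hands them to ubiquinone. *Etfa*, the alpha subunit of the flavoprotein and the most abundant mitochondrial member per kilobase, had 423, 458 and 522 CPM in the AdWT-labelled libraries and 466, 426 and 425 CPM in the AdKO-labelled ones. The groups overlapped, and AdWT replicate 3 was the highest library. The log2 fold changes of *Etfa* and *Etfdh* were −0.092 and −0.13, and that of *Etfa* was −0.015 without AdWT replicate 3.

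**Figure D3:**
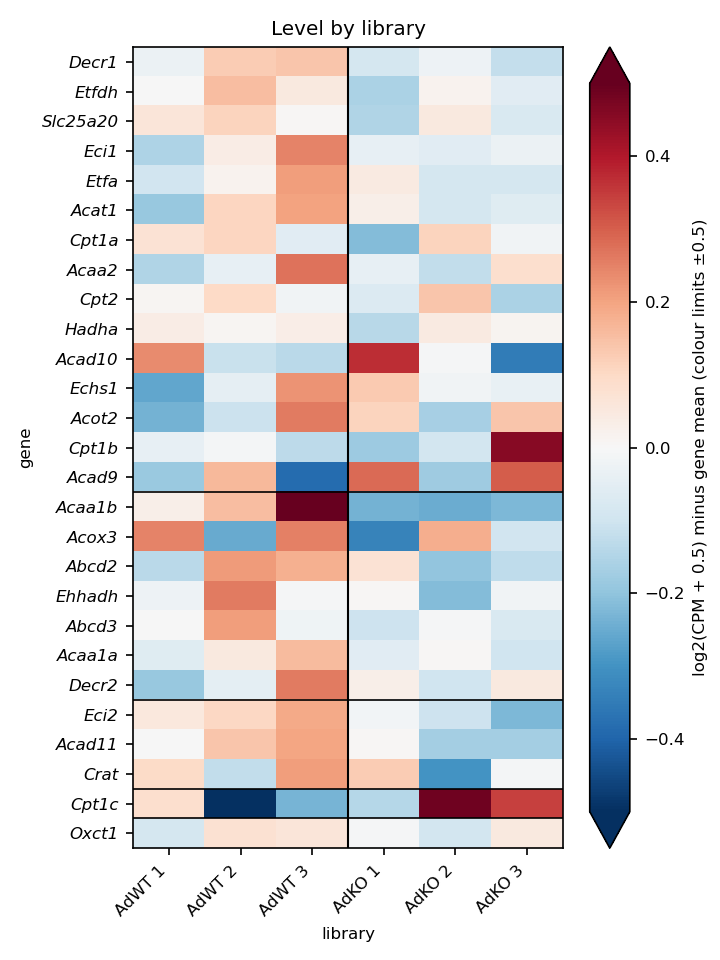
Colour gives the log2(CPM + 0.5) of each of the 27 genes tested minus that gene's mean over the 6 libraries, with colour limits at ±0.5, in the 3 AdWT and the 3 AdKO libraries, and horizontal lines separate mitochondrial, peroxisomal, both-organelle, neither-organelle and ketone body genes. AdWT 3 was the highest library for 14 of the 27 genes and AdWT 1 for 0.

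Peroxisomal import of acyl-CoA is the work of the ABCD half-transporters. *Abcd2*, which favours very long-chain and polyunsaturated acyl-CoA (chromosome 15, 90976315 to 91022238, minus strand), had 1348, 1716 and 1674 CPM in the AdWT-labelled libraries and 1559, 1290 and 1357 CPM in the AdKO-labelled ones. AdWT replicate 1 lay with the lower libraries labelled AdKO, and AdKO replicate 1 lay between the others. Its log2 fold change was −0.17 (standard error 0.122, 95% interval −0.46 to 0.11). *Abcd3*, which carries branched and dicarboxylic substrates, had a log2 fold change of −0.13. *Abcd2* alone made up most of the summed CPM of the peroxisomal genes.

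Inside the peroxisome, *Acox3*, the branched-chain oxidase, had between 2.06 and 3.35 CPM, and *Acox2*, the bile acid and branched-chain oxidase of liver, which has 2 rows, was listed at 0 in all 6 libraries. *Ehhadh*, the bifunctional enzyme of the L-specific route, and *Decr2*, the peroxisomal dienoyl-CoA reductase, had log2 fold changes of −0.16 and −0.024. The last step is thiolysis by the 3-ketoacyl-CoA thiolases *Acaa1a* and *Acaa1b*, which lie near each other on chromosome 9 of mm9, *Acaa1b* at 119057141 to 119066211 on the minus strand and *Acaa1a* at 119250412 to 119259413 on the plus strand.

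The coding sequences of this pair in GENCODE vM1 are both 1275 bases long and differ at 44 bases, an identity of 96.5%, and 38.1% of the 50-base windows of either are also in the other, with a longest shared run of 327 bases. Reads from shared stretches cannot be assigned to either gene by sequence alone, so the split of counts between them depends on the aligner and is uncertain. The window of 120 bases below, bases 433 to 552 of each coding sequence counted from the start codon, holds 14 of the differences, shown in capitals. It shows where reads can tell the genes apart.
Acaa1a: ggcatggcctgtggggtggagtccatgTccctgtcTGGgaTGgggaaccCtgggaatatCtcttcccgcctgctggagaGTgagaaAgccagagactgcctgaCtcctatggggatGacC
Acaa1b: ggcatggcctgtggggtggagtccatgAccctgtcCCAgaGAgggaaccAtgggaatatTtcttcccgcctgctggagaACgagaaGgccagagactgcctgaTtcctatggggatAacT

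*Acaa1b* had 101, 110 and 142 CPM in the AdWT-labelled libraries and 83.8, 83.1 and 84.5 CPM in the AdKO-labelled ones. All 3 libraries labelled AdKO were below all 3 labelled AdWT, they lay close together, and AdWT replicate 3 stood highest. The means were 117 ± 21.3 CPM (SD, n = 3) and 83.8 ± 0.712 CPM (SD, n = 3), a 1.402-fold lower level in the libraries labelled AdKO. The fitted log2 fold change was −0.49 (standard error 0.124, 95% interval −0.78 to −0.20), with an unadjusted *p* of 0.0051 and an adjusted *p* of 0.817 in the quasi-likelihood test of edgeR (Benjamini-Hochberg adjusted). The two-sided exact permutation test gave *p* = 0.1, the smallest that 3 replicates against 3 allow. The log2 fold change was −0.34 without AdWT replicate 3. With the adipocyte marker level as a covariate it was −0.26 with an unadjusted *p* of 0.0564, and with the skeletal muscle level as a covariate it was −0.75.

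*Acaa1a*, the partner in the same organelle and reaction, had 203, 219 and 236 CPM in the AdWT-labelled libraries and 203, 212 and 197 CPM in the AdKO-labelled ones. The groups overlapped, and AdWT replicate 3 was again the highest. Its log2 fold change was −0.10, with a 95% interval from −0.28 to 0.076. Within each library, *Acaa1b* had 0.497, 0.502 and 0.599 of the count of *Acaa1a* in those labelled AdWT and 0.412, 0.391 and 0.428 in the AdKO-labelled ones. The ratios of the groups did not overlap, with a log2 difference of −0.37 (exact two-sided permutation test, *p* = 0.1, the minimum of this design), which is a comparison within a library and so does not depend on its scaling. This ratio was examined after the values of both genes were seen.

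**Figure D4:**
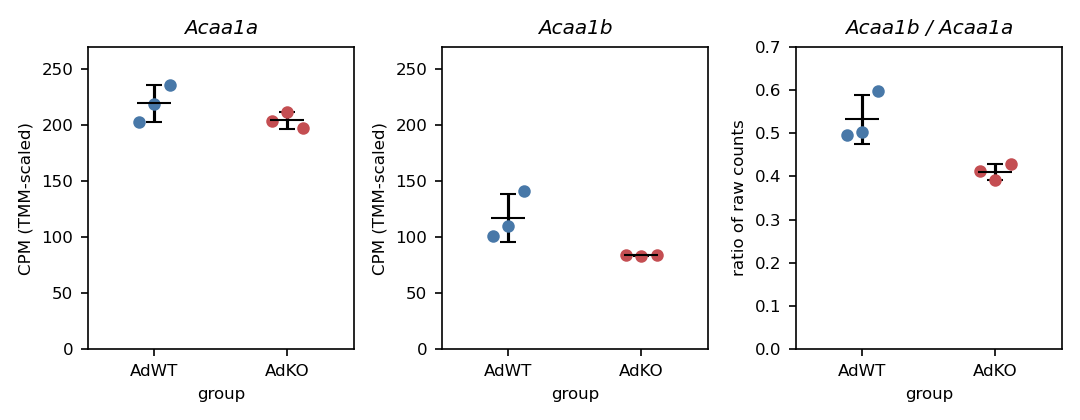
Left and middle, CPM of *Acaa1a* and *Acaa1b* in each library (points) with the mean and SD of each group (bars, n = 3), and right, the ratio of their raw counts within each library. The *Acaa1b* values labelled AdKO, 83.1 to 84.5 CPM, lie below all AdWT values, and the ratio is 0.391 to 0.428 against 0.497 to 0.599, while the *Acaa1a* values overlap.

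The promoters of the pair are shown because these neighbours encode thiolases of the same step, and because PPAR receptors bind a direct repeat found in many oxidation genes. Both are 300 bases, 250 before and 50 after the start in RefSeq (GRCm38.p6), at chr9:119157044-119157343 on the minus strand for *Acaa1b* and chr9:119341044-119341343 on the plus strand for *Acaa1a*. Capitals mark the best match on either strand to this repeat, AGGTCA followed after 1 base of any kind by AGGTCA again, in which 12 letters were scored.
Acaa1b: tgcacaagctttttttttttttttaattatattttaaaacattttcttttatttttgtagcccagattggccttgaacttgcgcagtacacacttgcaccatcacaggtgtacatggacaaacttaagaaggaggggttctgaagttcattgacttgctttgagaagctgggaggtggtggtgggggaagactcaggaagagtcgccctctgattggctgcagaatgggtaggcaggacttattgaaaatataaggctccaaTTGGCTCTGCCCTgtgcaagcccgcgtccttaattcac
Acaa1a: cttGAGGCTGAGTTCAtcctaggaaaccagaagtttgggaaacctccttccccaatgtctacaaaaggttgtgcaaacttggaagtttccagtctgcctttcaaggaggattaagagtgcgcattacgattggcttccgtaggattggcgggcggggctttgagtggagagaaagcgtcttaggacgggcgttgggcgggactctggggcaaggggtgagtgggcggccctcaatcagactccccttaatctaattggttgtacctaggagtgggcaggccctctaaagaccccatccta

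The match reached 8 of 12 letters for *Acaa1b* and 7 for *Acaa1a*. At least 8 letters were matched in 79.8% of the 32851 promoters of the same length and in 25 of the 30 list genes with a promoter in the table, so 8 letters is a common match. At least 10 letters were matched in 3.86% of all promoters and in 4 list genes, *Acox2*, *Echs1*, *Etfa* and *Slc25a20*, and all 12 in 0.0396% of promoters and in 0 list genes. These shares are per promoter, while a list gene with several promoters was counted by its best, as for *Acox2*, with 9 and 10 letters.

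Acyl-CoA thioesterases release free fatty acids and coenzyme A. *Acot2*, the mitochondrial enzyme, had 33.9, 37.1 and 48.0 CPM in the AdWT-labelled libraries and 43.3, 35.6 and 44.1 CPM in the AdKO-labelled ones. The groups overlapped fully, and the log2 fold change was 0.047 with a 95% interval from −0.31 to 0.40. *Acot1*, the cytosolic enzyme encoded beside it on chromosome 12, had 12, 7 and 5 counts in the AdWT-labelled libraries and 2, 5 and 10 counts in the AdKO-labelled ones and was left out by the filter. The coding sequences share much of their length, with 40.1% of the 50-base windows of *Acot2* also in *Acot1* and a longest shared run of 273 bases, so a few counts of *Acot1* could belong to *Acot2*.

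Ketone body use depends on *Bdh1*, which interconverts 3-hydroxybutyrate and acetoacetate, on *Oxct1*, which activates acetoacetate, and on *Acat1*, which cleaves the product. *Oxct1* had 13.3, 15.005 and 14.9 CPM in the AdWT-labelled libraries and 14.2, 13.3 and 14.7 CPM in the AdKO-labelled ones. The groups overlapped, and its log2 fold change was −0.034, with a standard error of 0.115 and a 95% interval from −0.30 to 0.23. *Bdh1* had 0, 0 and 7 counts in the AdWT-labelled libraries and 0, 1 and 1 counts in the AdKO-labelled ones, too few for a comparison at this depth. *Acat1* had 502, 616 and 659 CPM in the AdWT-labelled libraries and 585, 539 and 549 CPM in the AdKO-labelled ones. The highest and the lowest library were both labelled AdWT, and the 95% interval of its log2 fold change ran from −0.34 to 0.17.

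By organelle, the 15 mitochondrial genes tested had a median log2 fold change of −0.061, with 5 above and 10 below 0 and a range from −0.16 to 0.48. The 7 peroxisomal genes tested were all below 0, with a median of −0.16 and a range from −0.49 to −0.024. Over the alternatives that median lay between −0.17 and −0.079. *Decr2* turned above 0 with library size scaling only (0.027), without AdWT replicate 3 (0.10) and without AdKO replicate 2 (0.014). The adipocyte marker covariate put *Decr2* (0.20), *Abcd2* (0.051) and *Acaa1a* (0.000638) above 0, and the skeletal muscle covariate *Ehhadh* (0.11) and *Abcd3* (0.092). The 3 genes of both organelles, *Acad11*, *Eci2* and *Crat*, were below 0 as well, with a median of −0.22. Over all members, 21 of 27 (77.8%) were below 0 with a median of −0.092, where 48.3% of all rows tested were below 0 and their median was 0.0071. The genes of a pathway share the same 6 libraries and are not independent, so these counts describe the lists. With the adipocyte marker level as a covariate, 14 of the 27 were below 0, the median was −0.048, and that of the mitochondrial genes was 0.047.

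*Acaa1b* and *Eci2* were the 2 members whose groups did not overlap, both lower in the libraries labelled AdKO, where 11.9% of all rows tested did not overlap and 5.72% did so in that direction. This count was 11 without AdWT replicate 1, where 31.8% of all rows did not overlap, 10 without AdKO replicate 2 (20% of all rows), 5 without AdWT replicate 2 (17.9%) or AdWT replicate 3 (21%), 4 without AdKO replicate 1 (21.1%) and 2 without AdKO replicate 3 (21.4%). Over the 27 genes it was 4 with RLE, upper quartile or library size scaling, where 11.6% to 12% of all rows did not overlap. Summed over the mitochondrial genes, the CPM was 3974, 4318 and 4459 in the AdWT-labelled libraries and 3938, 4112 and 3990 in the AdKO-labelled ones. Summed over the peroxisomal genes, it was 2044, 2499 and 2462 against 2231, 1970 and 2028. Both sums overlapped between the groups. The peroxisomal sum was 51.4%, 57.9% and 55.2% of the mitochondrial sum in the AdWT-labelled libraries and 56.7%, 47.9% and 50.8% in the AdKO-labelled ones, which also overlapped. Without *Abcd2*, a choice made after its weight in the sum was seen, the share was 17.5%, 18.1% and 17.7% against 17.1%, 16.5% and 16.8%, and the groups did not overlap. Without *Acaa1b* as well, it was 14.97%, 15.6% and 14.5% against 14.9%, 14.5% and 14.7%, and the groups overlapped again.

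The members also varied between animals of the same group. The median over the 27 genes of the log2 level minus its gene mean was −0.027, 0.075 and 0.16 in the AdWT-labelled libraries and −0.041, −0.087 and −0.058 in the AdKO-labelled ones. AdWT replicate 3 was the highest library for 14 genes and AdWT replicate 1 for 0, and AdWT replicate 1 and AdKO replicate 1 were each the lowest for 7. Among peroxisomal genes alone the medians were −0.027, 0.16 and 0.18 against −0.056, −0.098 and −0.095, and among mitochondrial genes −0.040, 0.036 and 0.050 against −0.043, −0.026 and −0.036.

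The summed CPM of the adipocyte markers was also highest in AdWT replicates 3 and 2, with 70870, 82350 and 88080 in the AdWT-labelled libraries and 71500, 68510 and 66680 in the AdKO-labelled ones. That list has 13 genes, of which 8 had a row and 1 of these was at 0 in all libraries, and its defining markers *Adipoq*, *Fabp4* and *Plin1* were detected in every library. The macrophage markers, with 6 of 10 genes having a row, summed to 1206, 921 and 626 CPM against 1056, 1257 and 1232 CPM, and their defining markers *Adgre1* and *Cd68* were not analysed here. The skeletal muscle markers, with 28 of 38 genes having a row, summed to 102, 292 and 70.5 CPM against 58.7, 60.3 and 57.0 CPM. The part of these cell types in the levels of the oxidation genes was not tested beyond the fits with a marker level as a covariate. Lymphocyte markers summed to 7.56 to 22.6 CPM over the 6 libraries. Epithelial markers reached 20.3 CPM in AdWT replicate 3 and 48.0 CPM in AdKO replicate 3 and were under 1.5 CPM in the other 4.

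**Figure D5:**
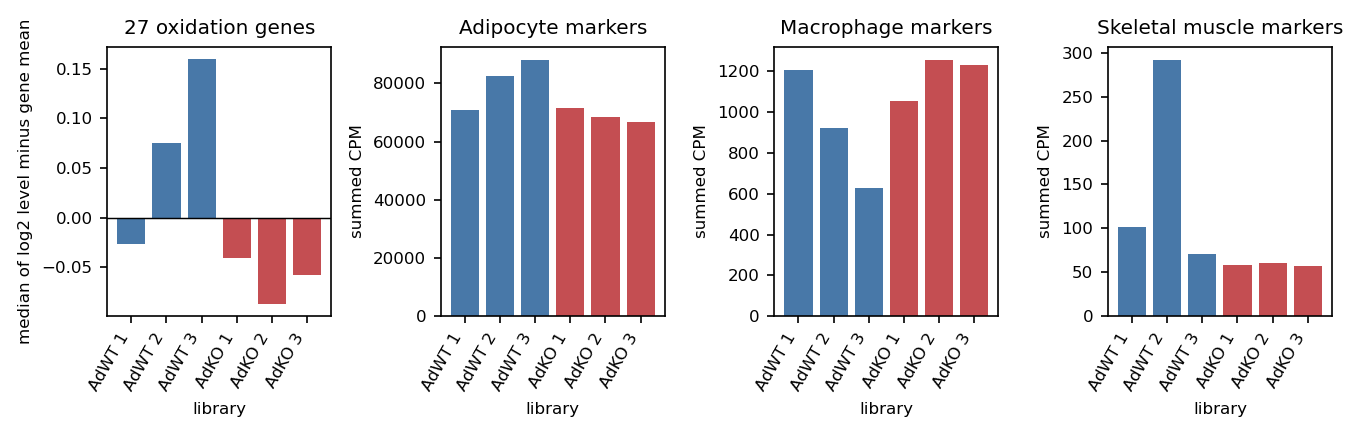
The first panel gives, for each library, the median over the 27 oxidation genes of the log2 level minus its gene mean, and the other panels give the summed CPM of adipocyte, macrophage and skeletal muscle markers (blue AdWT, red AdKO). AdWT 3 is highest in the first 2 panels, at 0.16 and 88080 CPM, and lowest in macrophage markers at 626 CPM, and AdWT 2 is highest in muscle markers at 292 CPM.

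The same comparison was made for lists of other genes of the pathway, and in each list 0 genes had an adjusted *p* under 0.05 in the quasi-likelihood test of edgeR (Benjamini-Hochberg adjusted). Fatty acid activation and control of entry, with 8 of 12 genes tested, had 3 genes above and 5 below 0 and a median log2 fold change of −0.095. It held 2 genes with an unadjusted *p* under 0.05, both below 0, a threshold that took in 5.73% of all rows. *Dbi*, the acyl-CoA binding protein, had 296, 332 and 334 CPM against 274, 245 and 271 CPM, a log2 fold change of −0.28. *Mlycd*, which removes the malonyl-CoA that inhibits Cpt1, had 27.2, 25.8 and 25.6 CPM against 21.5, 20.9 and 22.2 CPM, also −0.28. Neither gene overlapped between the groups, as was so for 11.9% of all rows. *Acsl1*, the main acyl-CoA synthetase of fat, was not analysed here.

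Transcriptional regulators of oxidation, with 8 of 12 genes tested, had 3 above and 5 below 0 and a median of −0.097, which was −0.013 without AdKO replicate 3 and −0.31 with the skeletal muscle covariate. *Lpin1*, a phosphatidate phosphatase that also acts as a coactivator of PPAR receptors, has 4 rows, of which the one used had 58 to 116 counts. It had 7.59, 5.62 and 7.63 CPM in the AdWT-labelled libraries and 3.99, 4.68 and 3.97 CPM in the AdKO-labelled ones. The groups did not overlap, as in 11.9% of all rows. A log2 fold change of −0.72 (standard error 0.187) was the lowest of the list and the only one with an unadjusted *p* under 0.05, a threshold that 5.73% of all rows passed, with an unadjusted *p* of 0.00567 and an adjusted *p* of 0.817 in the quasi-likelihood test of edgeR (Benjamini-Hochberg adjusted). *Pparg*, the master regulator of adipocytes, had a log2 fold change of −0.10. *Ppara*, the receptor that drives oxidation genes in liver, had 3 to 16 counts per library and a log2 fold change of 0.27. *Ppargc1a*, the coactivator of mitochondrial genes, was listed at 0 in all libraries over 2 rows, and so was *Pex5*, a peroxisomal import receptor that cells with peroxisomes need, over 3 rows.

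PPAR target genes outside the members, with 8 of 10 tested, had 2 above and 6 below 0 and a median of −0.17. Further mitochondrial acyl-CoA genes had 2 above and 6 below 0 of 8 tested, with a median of −0.10, and further peroxisomal oxidation genes had 4 above and 5 below 0 of 9 tested, with a median of −0.011. Peroxisome biogenesis genes had 3 above and 9 below 0 of 12 tested, with a median of −0.13, and *Pex19*, the receptor for peroxisomal membrane proteins, had a log2 fold change of −0.18. Its unadjusted *p* of 0.0329 was the only one of the list under 0.05, against 5.73% of all rows, and its adjusted *p* was 0.851 in the quasi-likelihood test of edgeR (Benjamini-Hochberg adjusted). Further ketone body genes gave 2 genes tested, 1 above and 1 below 0.

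Brown and beige adipocyte markers, with 9 of 12 genes tested, had 5 above and 4 below 0 and a median of 0.13. *Ucp1*, the uncoupling protein that defines these cells, had 25, 8 and 7 counts in the AdWT-labelled libraries and 21, 58 and 67 counts in the AdKO-labelled ones. AdKO replicate 1 lay below AdWT replicate 1, and the other libraries labelled AdKO were above all those labelled AdWT. Of the 9 genes, 3 had an unadjusted *p* under 0.05, against 5.73% of all rows, namely *Ucp1*, *Cox8b* and *Kcnk3*, the last 2 named after their values were seen. *Cox8b*, a cytochrome c oxidase subunit of brown fat, heart and muscle, had 50.3, 39.8 and 33.3 CPM in the AdWT-labelled libraries and 55.8, 72.5 and 59.0 CPM in the AdKO-labelled ones. All AdKO-labelled values lay above the AdWT-labelled ones, and the log2 fold change was 0.60 with a standard error of 0.167. *Kcnk3*, a potassium channel, had 245, 282 and 244 CPM against 217, 202 and 210 CPM, so all AdKO-labelled values lay below, and its log2 fold change was −0.29 with a standard error of 0.0791. Of all rows, 11.9% did not overlap between the groups. The adjusted *p* was 0.847 for both in the quasi-likelihood test of edgeR (Benjamini-Hochberg adjusted), and 0.851 for *Ucp1*, whose log2 fold change was 1.85. The summed CPM of these markers, most of it from *Kcnk3*, was 334 to 369 in the AdWT-labelled libraries and 323 to 332 in the AdKO-labelled ones. AdKO replicates 2 and 3, with the most *Ucp1* counts, had medians over the oxidation genes of −0.087 and −0.058.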

How the data were processed

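Bulk RNA-seq of iWAT from 3 *Lexis*-AdWT and 3 *Lexis*-AdKO mice was analysed. The authors made stranded libraries, sequenced them on a HiSeq, aligned the reads with HISAT2 to mm9 and deposited raw counts per row with no normalization. The counting tool, annotation and strand setting are not given in the sources used here, and DESeq2 is named in the submitters' processing notes. No column belonged to no sample (0).

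Counts were compared in R 4.3.3 with edgeR 4.0.16 (filterByExpr by group, TMM, glmQLFit, glmQLFTest) and Benjamini-Hochberg adjustment over all rows tested, with a threshold of 0.05. Standard errors were obtained as log2 fold change over the root of F, and 95% intervals use the t distribution of the fit. With a common biological coefficient of variation of 0.196, animals differed by more than counting error at genes with high counts. Exact permutation tests used log2(CPM + 0.5). The test was checked on simulated data. Totals per library are given with the results.

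The members, lists and tests were chosen with earlier results of these data known. Values in every library are given for members with an unadjusted *p* under 0.05 or groups that do not overlap, the largest positive and negative difference and the most abundant gene per kilobase of each organelle, ketone body genes, related pairs and members left out by the filter, and of the pathway lists, genes with an unadjusted *p* under 0.05 and *Pparg*, *Ppara* and *Acsl1* are named. *Hadha* was added after its values were seen. Lengths and positions are from GENCODE vM1 (NCBIM37, mm9) and promoters from RefSeq (GRCm38.p6). Figures used Python 3.11.15 and matplotlib 3.10.9.

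Alternatives were DESeq2 1.42.0, scaling by RLE, upper quartile or library size only, a looser filter (1 count or more in some library) and a stricter filter (10 counts or more in each), the replicate number as a block, robust fitting, summed rows of a symbol, the skeletal muscle or adipocyte markers as a covariate, and each library left out. Some results for single genes of the lists are not given.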

Additional observations from a re-analysis of the deposited data

How the results depend on the processing

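The count of members with an unadjusted *p* under 0.05 was 1 with library size only, with the replicate block, and with the skeletal muscle or the adipocyte marker covariate, where 4.81%, 4.23%, 3.34% and 5.26% of all rows passed. The last of these was chosen after seeing the data and left *Echs1*, on the higher side. Members whose groups do not overlap numbered 4 with RLE, upper quartile or library size scaling, where 11.6% to 12% of all rows did not overlap. The mitochondrial median was −0.010 with library size only and 0.047 with the adipocyte covariate. The ketone body median was −0.97 with DESeq2 and −0.85 with the filter of at least 1 count, which both let in *Bdh1*, and 0.057 with the adipocyte covariate. Rows with an adjusted *p* under 0.05 numbered 27 with DESeq2 and 1 with the filter of at least 1 count, and rows with an unadjusted *p* under 0.05 numbered 330 with the muscle covariate. Apart from the entry of *Bdh1*, the cause was not tested.

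Leaving out 1 library at a time gave 1 to 6 members with an unadjusted *p* under 0.05 (6 without AdWT replicate 1, where 11.8% of all rows passed) and 2 to 11 whose groups do not overlap (11 without AdWT replicate 1 and 10 without AdKO replicate 2, where 31.8% and 20% of all rows did not overlap). It gave 0 to 1 rows with an adjusted *p* under 0.05 and 329 to 1208 with an unadjusted *p* under 0.05, the extremes without AdWT replicates 2 and 1. The median over all members ranged from −0.12 to −0.058, the mitochondrial from −0.077 to −0.015, the peroxisomal from −0.16 to −0.11 and the ketone body from −0.085 to −0.0031. Library size only moved the median of all rows to 0.054, and the 566 rows with an unadjusted *p* under 0.05, split 272 higher and 294 lower, became 313 higher and 162 lower.

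The sign of single members turned as follows. With the adipocyte covariate the log2 fold change was 0.051 for *Abcd2*, 0.000638 for *Acaa1a*, 0.13 for *Acaa2*, −0.087 for *Acad10*, 0.14 for *Acat1*, 0.20 for *Decr2*, 0.10 for *Eci1*, 0.074 for *Etfa* and 0.057 for *Oxct1*. With the muscle covariate it was 0.092 for *Abcd3*, −0.022 for *Acad10*, −0.22 for *Acot2*, 0.049 for *Cpt1a*, 0.047 for *Cpt2*, −0.14 for *Echs1*, 0.11 for *Ehhadh* and 0.0064 for *Oxct1*. With library size only it was 0.027 for *Decr2* and 0.016 for *Oxct1*. Leaving out 1 library gave ranges that cross 0 for *Acaa2* (−0.15 to 0.063), *Acad10* (−0.24 to 0.24), *Acot2* (−0.053 to 0.20), *Cpt1a* (−0.16 to 0.0057), *Cpt1b* (−0.078 to 0.27), *Cpt2* (−0.15 to 0.0075), *Decr2* (−0.12 to 0.10), *Echs1* (−0.069 to 0.17), *Eci1* (−0.19 to 0.0037) and *Hadha* (−0.094 to 0.0011). Other ranges stayed on one side of 0 but moved by over 1.5 times from the value with all 6 libraries. These were the ranges of *Cpt1c* (0.43 to 0.90), *Acad9* (0.25 to 0.82), *Crat* (−0.22 to −0.012), *Slc25a20* (−0.18 to −0.073), *Acaa1a* (−0.16 to −0.056), *Acat1* (−0.19 to −0.014), *Etfa* (−0.16 to −0.015), *Etfdh* (−0.18 to −0.088), *Acox3* (−0.37 to −0.060), *Ehhadh* (−0.21 to −0.062), *Abcd2* (−0.27 to −0.11), *Abcd3* (−0.18 to −0.054) and *Oxct1* (−0.085 to −0.0031). Less movement from that value, also on one side of 0, was seen for *Acaa1b* (−0.58 to −0.34), *Eci2* (−0.30 to −0.19), *Decr1* (−0.21 to −0.14) and *Acad11* (−0.28 to −0.19). Of the alternative values of single members, 423 kept their direction and 35 turned sign, 0 had an adjusted *p* under 0.05, 9 left an unadjusted *p* under 0.05 (8 of them of *Acad11* and 1 of *Acaa1b*) and 5 came under it, and of those of counts and medians, lists included, 304 stayed close and 67 moved. Over all alternatives the median crossed 0 for fatty acid activation (−0.23 to 0.046), PPAR targets (−0.50 to 0.21), further mitochondrial genes (−0.21 to 0.070), further peroxisomal genes (−0.083 to 0.076), peroxisome biogenesis (−0.15 to 0.022), further ketone body genes (−0.0065 to 0.074), brown and beige markers (−0.063 to 0.22), adipocyte markers (−0.40 to 0.065), macrophage markers (−0.027 to 0.78), lymphocyte markers (−0.73 to 0.43) and epithelial markers (−1.015 to 3.3).

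Libraries of the same replicate number correlated at −0.10, −0.12 and 0.35 in their deviations from the group means. They did not all correlate best with their own number. Whether the numbers pair the samples cannot be told from this, since deviations from the mean of so few libraries are not independent. With the replicate number as a block, members with an unadjusted *p* under 0.05 went from 2 to 1 and all rows from 566 to 418.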
